A study of Mus musculus with 12 samples.

Results

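The genes described here are 10 secreted regulators of blood vessel growth, Thbs1, Thbs2, Thbs3, Thbs4, Angpt1, Angpt2, Vegfa, Vegfb, Vegfc and Pgf, of 17365 genes in the count table. They were taken by symbol, and the set was chosen by measured values, since Thbs1, Angpt2 and Pgf were known to differ strongly between BMP and BMP/FGF, the media of the 2 quiescent states of cultured adult mouse neural stem cells (NSCs). The cells were wild type NSCs from the subventricular zone (SVZ) of mice aged 6 to 8 weeks, grown as the lines ANS4 (strain MF1) and BL6 (C57BL/6). Proliferating cultures were kept in EGF and FGF2 (EGF/FGF), dormant quiescent cultures (d-qNSCs) received BMP4 for 3 days (BMP), and primed quiescent cultures (p-qNSCs) received BMP4 with FGF2 for 3 days (BMP/FGF), each factor at 10 ng/ml. EGF was withdrawn from both quiescent media, and BMP held no added FGF2. Comparisons with EGF/FGF therefore cannot tell BMP4 apart from the loss of these factors. RNA was sequenced from 2 libraries per line and medium, 12 in all, with 18069052 to 19451818 counts per library. Each line is a single line, and replicates of a line are labelled biological replicates without a statement of separate animals, so p-values measure the spread between these cultures.

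Thrombospondins are large matrix glycoproteins. Thbs1 and Thbs2 form trimers and restrain vessel growth through the receptors CD36 and CD47, while Thbs3 and Thbs4 form pentamers, and astrocyte thrombospondins are known to promote synapse formation. Vegfa is the main growth signal of endothelial cells and acts through the receptor Kdr, whereas Vegfb and Pgf bind the receptor Flt1, and Vegfc drives lymphatic growth through Flt4. Angpt1 activates the receptor Tek and steadies vessels, and Angpt2 competes with it. In the SVZ, NSCs lie against blood vessels, and signals pass between both.

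Each gene had its own pattern over the media, as shown in the plot of levels in the 12 libraries. Angpt2 and Vegfa were highest in EGF/FGF, lowest in BMP and in between in BMP/FGF. Thbs1 was high in BMP, Pgf was high in BMP/FGF, Thbs2 was higher in both quiescent media than in EGF/FGF, and Angpt1 and Vegfb moved little. Levels are given as counts per 1000000 counts of the library (CPM), with library totals scaled as described under processing, as mean ± SD of the 4 libraries of a medium.

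**Figure D1:**
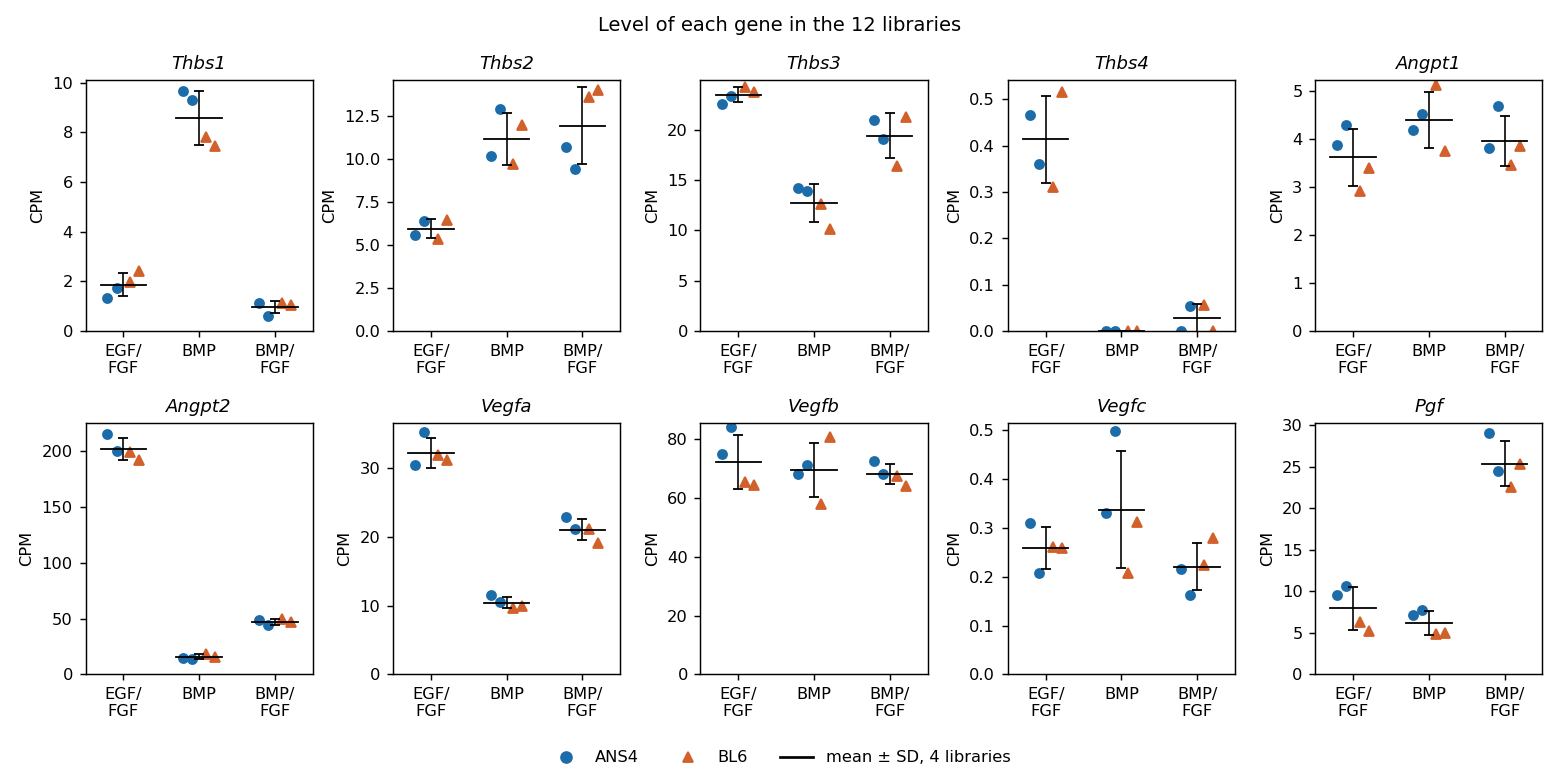
Level of each of the 10 genes in CPM (y axis, linear, from 0) in the 3 media (x axis), with 1 point per library, circles for ANS4 and triangles for BL6, and lines for the mean ± SD of 4 libraries. The Angpt2 libraries span 192 to 215 CPM for EGF/FGF, 13.6 to 18.7 for BMP and 43.9 to 49.7 for BMP/FGF, while Vegfb overlaps between all media.

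Sequences upstream of the start site are shown for 4 of the genes, Thbs2 (higher in both quiescent media), Thbs3 and Vegfa (lower in both) and Vegfb (no change called), because they span the patterns that could be tested. They come from RefSeq on GRCm38, are the 250 bases before the start, run 5′ to 3′ on the strand of the gene, and have each GC box (GGGCGG, searched on both strands) in capitals. The start sites came from a table that matched 7 of the 10 genes, with 9 promoters, and did not hold Thbs1, Angpt1 and Angpt2.
Thbs2, chr17:14694263-14694512, minus strand: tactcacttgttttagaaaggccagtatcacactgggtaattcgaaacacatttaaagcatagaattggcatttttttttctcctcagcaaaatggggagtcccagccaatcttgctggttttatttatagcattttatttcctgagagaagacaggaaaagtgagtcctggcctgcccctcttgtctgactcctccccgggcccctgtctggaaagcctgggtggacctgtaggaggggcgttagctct
Thbs3, chr3:89214930-89215179, plus strand: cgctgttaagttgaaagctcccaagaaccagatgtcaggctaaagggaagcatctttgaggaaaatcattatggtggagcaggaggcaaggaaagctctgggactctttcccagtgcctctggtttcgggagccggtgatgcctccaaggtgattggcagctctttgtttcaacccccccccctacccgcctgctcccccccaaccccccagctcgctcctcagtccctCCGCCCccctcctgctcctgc
Vegfa, chr17:46032378-46032627, minus strand: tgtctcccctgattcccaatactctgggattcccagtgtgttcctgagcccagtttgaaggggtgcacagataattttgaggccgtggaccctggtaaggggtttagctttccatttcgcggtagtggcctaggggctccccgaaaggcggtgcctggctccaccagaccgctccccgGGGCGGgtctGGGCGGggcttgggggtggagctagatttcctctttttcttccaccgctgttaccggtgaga
Vegfb, chr19:6987652-6987901, minus strand: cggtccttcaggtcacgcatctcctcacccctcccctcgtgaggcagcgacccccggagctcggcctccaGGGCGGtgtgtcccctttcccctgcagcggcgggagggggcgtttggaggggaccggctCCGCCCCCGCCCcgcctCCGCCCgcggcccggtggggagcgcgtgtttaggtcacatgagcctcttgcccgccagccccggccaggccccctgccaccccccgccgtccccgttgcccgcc

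A GC box was found in 7 of the 9 promoters of these genes and in 32.7% of 32851 promoters of the same length. The 9 include a further start of Vegfa inside the gene and both starts of Pgf, of which the first lies in an exon annotated by GENCODE, so these stretches lie within the annotated genes. The stretch held 4 GC boxes for Vegfb, 2 for Vegfa, 1 for Thbs3 and 0 for Thbs2. Its GC content was 76.4% for Vegfb, 59.2% for Vegfa, 58.8% for Thbs3 and 46.8% for Thbs2, against a median of 52.4% over all promoters. The hypoxia response core (ACGTG or GCGTG, both strands) was found in 4 of the 9 promoters and in 38.6% of all, with 2 matches for Vegfb, 2 for the further start of Vegfa, and 0 in the printed stretches of Vegfa, Thbs2 and Thbs3. The AP-1 site (TGAGTCA or TGACTCA, which are each other's reverse complement) and the E-box (CACGTG, which contains the hypoxia core) were found in 0 of the 9, against 4.46% and 6.02% of all promoters. These are letter matches in a short window and not binding data. The Thbs3 stretch lies within the annotated span of Mtx1, a mitochondrial import gene on the opposite strand, outside its exons.

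The first question was how the genes differed between both quiescent media and the proliferating medium. To answer it for all genes without using the contrast between BMP and BMP/FGF that chose them, the mean of both quiescent media was compared with EGF/FGF. Of the 10 genes, 8 passed the filter on low counts and could be tested, and Thbs4 and Vegfc did not pass. Among the 8, 3 were higher in the mean of both quiescent media (Thbs1, Thbs2, Pgf) and 3 were lower (Thbs3, Angpt2, Vegfa). The test was edgeR's quasi-likelihood test with Benjamini-Hochberg adjustment (FDR) at 0.05. For Thbs1 and Pgf the mean joins log2 differences of opposite sign. These were 2.18 in BMP and −0.94 in BMP/FGF for Thbs1, and −0.35 and 1.71 for Pgf. Of all 13312 tested genes, 82.0% were called, 42.2% higher and 39.7% lower, so 6 calls among 8 genes are near the share of all genes. In these bulk cultures, fewer cells of a type and less RNA per cell cannot be told apart.

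**Figure D2:**
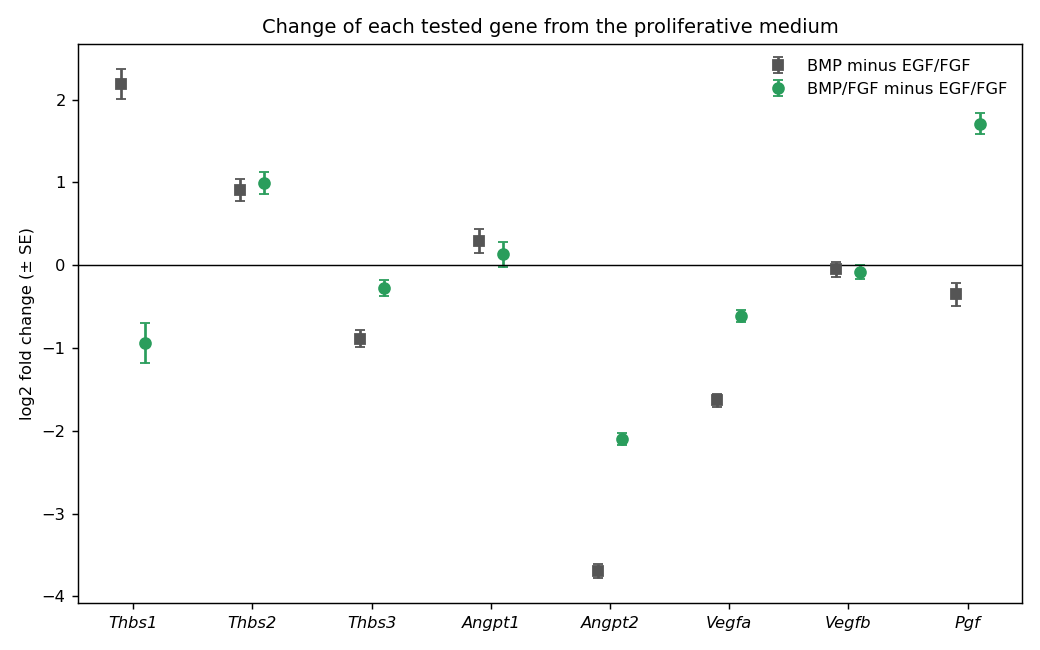
Log2 fold change from EGF/FGF (y axis, points with ± 1 SE) of the 8 tested genes (x axis) in BMP (squares) and BMP/FGF (circles), from the edgeR fit on 12 libraries. Thbs1 lies at 2.18 in BMP and −0.94 in BMP/FGF, Pgf at −0.35 and 1.71, and Angpt2 below 0 in both, at −3.69 and −2.10.

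Angpt2 had the largest difference of the 8 tested genes. Its level was 215 and 200 CPM in the ANS4 and 199 and 192 in the BL6 libraries in EGF/FGF. In BMP it was 14.4 and 13.6 in ANS4 and 18.7 and 16.0 in BL6. In BMP/FGF it was 48.3 and 43.9 in ANS4 and 49.7 and 46.6 in BL6. The 3 media did not overlap in any library. The mean of 201 ± 9.6 CPM in EGF/FGF was 12.9-fold that in BMP (15.7 ± 2.2) and 4.28-fold that in BMP/FGF (47.1 ± 2.5). Over both quiescent media, Angpt2 fell by 2.89 on the log2 scale (SE 0.06, FDR = 4.68e-17, edgeR). The 3.01-fold higher level in BMP/FGF than in BMP (log2 difference 1.59, SE 0.08) is one of the values that chose the set and carries no test.

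Angpt1, the ligand that activates Tek, showed no comparable pattern. It stood at 3.88, 4.29, 2.91 and 3.41 CPM in EGF/FGF, at 4.19, 4.54, 5.13 and 3.75 in BMP and at 3.82, 4.69, 3.46 and 3.85 in BMP/FGF (ANS4 first, then BL6), and the media overlapped. The log2 difference of quiescent media from EGF/FGF was 0.21 (SE 0.13, FDR = 0.143, edgeR), an interval at 2 SE from −0.05 to 0.47. As levels per length (CPM per kb of the longest coding transcript), Angpt2 exceeded Angpt1 by 67.8 ± 10.7 in EGF/FGF, 4.28 ± 0.63 in BMP and 14.5 ± 2.5 in BMP/FGF (ratio, mean ± SD, n = 4). The ratio did not overlap between media, but it reuses the Angpt2 values that chose the set and carries no test.

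Vegfa ran in the same order as Angpt2, with a smaller range. It stood at 30.4 and 35.3 CPM in ANS4 and 31.99 and 31.2 in BL6 in EGF/FGF. In BMP it was 11.5, 10.5, 9.69 and 9.95, and in BMP/FGF it was 22.9, 21.1, 21.2 and 19.2, in the same order of lines. No library of one medium reached the range of another. Against EGF/FGF, Vegfa fell by 1.63 in BMP (SE 0.08, FDR = 2.61e-12) and fell by 0.61 in BMP/FGF (SE 0.08, FDR = 7.47e-07) on the log2 scale, by edgeR. For the genes the choice did not single out, these comparisons with EGF/FGF could be tested, and 3 of 5 were called in each. In BMP, 1 was higher and 2 lower (79.6% of all tested genes called, 40.8% higher and 38.8% lower), and in BMP/FGF the count was also 1 higher and 2 lower (78.9% of all called, 40.9% higher and 38.0% lower).

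Vegfb, which binds Flt1 but is a weak vessel growth factor, had no called difference from EGF/FGF with all libraries. Its mean was 72.2 ± 9.3 CPM in EGF/FGF, 69.4 ± 9.3 in BMP and 68.0 ± 3.5 in BMP/FGF. The 2 BL6 libraries in BMP, at 58.0 and 80.6, were its lowest and its next to highest value. The log2 difference from EGF/FGF was −0.05 in BMP (SE 0.09, interval at 2 SE from −0.23 to 0.13, FDR = 0.610, edgeR) and −0.08 in BMP/FGF (SE 0.09, −0.26 to 0.09, FDR = 0.405, edgeR). Without the second BL6 library in BMP, Vegfb was called lower in BMP, by 0.17 (FDR = 0.0275, edgeR), so the absence of a call in BMP rests on that library. In ANS4 libraries alone it was called lower in both, but not in BL6 libraries alone. The ANS4 values were −0.20 in BMP (FDR = 0.0185, edgeR) and −0.18 in BMP/FGF (FDR = 0.0279, edgeR).

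Pgf, the placental growth factor that binds Flt1 and not Kdr, was highest in BMP/FGF. In EGF/FGF it stood at 9.57 and 10.6 CPM in ANS4 and 6.29 and 5.27 in BL6. In BMP it stood at 7.18 and 7.75 in ANS4 and 4.87 and 4.95 in BL6. In BMP/FGF it stood at 29.1 and 24.5 in ANS4 and 22.6 and 25.4 in BL6, above every library of the other media. EGF/FGF and BMP overlapped. The level in BMP/FGF (25.4 ± 2.7 CPM) was 4.11-fold that in BMP (6.19 ± 1.49), which chose the set, and 3.20-fold that in EGF/FGF (7.94 ± 2.57), which shares its BMP/FGF libraries and carries no test. Over both quiescent media, Pgf rose by 0.68 (SE 0.11, FDR = 2.74e-05, edgeR), a mean of a log2 difference of −0.35 in BMP and 1.71 in BMP/FGF.

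The balance of the VEGF ligands, as a ratio of CPM per kb of the longest coding transcripts, differed by medium. Pgf stood to Vegfa at 0.407 ± 0.122 in EGF/FGF, 0.978 ± 0.189 in BMP and 2.00 ± 0.19 in BMP/FGF. Vegfa stood to Vegfb at 0.167 ± 0.016, 0.0564 ± 0.0079 and 0.115 ± 0.003 in the same order. Neither ratio overlapped between media, as shown in the plot of ratios. The ratio of Pgf to Vegfa reuses the Pgf values that chose the set, and neither ratio carries a test. The size of each ratio depends on the transcript taken, and with the shortest coding transcripts Pgf stood to Vegfa at 0.0796, 0.191 and 0.391 and Vegfa to Vegfb at 1.02, 0.343 and 0.700, in the same order of media. Vegfc, the lymphatic growth factor, had 3 to 9 counts in every library and did not pass the filter. Its summed counts were 20 in EGF/FGF, 25 in BMP and 16 in BMP/FGF, and EGF/FGF did not differ detectably from the quiescent media at this depth (two-sided exact permutation test over 495 divisions of the 12 libraries, p = 0.764).

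**Figure D3:**
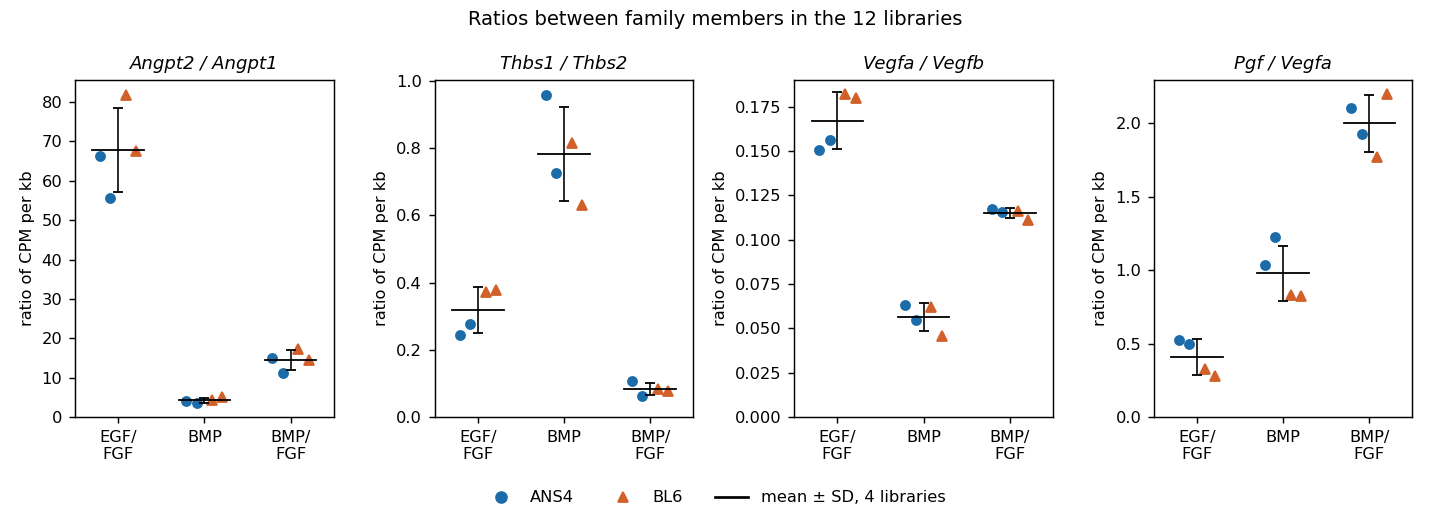
Ratio of the CPM per kb of 2 family members (y axis, linear, from 0) in the 3 media (x axis), with 1 point per library, circles for ANS4 and triangles for BL6, and lines for the mean ± SD of 4 libraries. Angpt2 / Angpt1 is highest in EGF/FGF (55.8 to 81.8), Thbs1 / Thbs2 in BMP (0.629 to 0.959) and Pgf / Vegfa in BMP/FGF (1.77 to 2.20).

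Thbs1, the trimeric thrombospondin best known as a vessel growth inhibitor, was the gene of the set with the largest difference between the quiescent media. In EGF/FGF it stood at 1.35 and 1.76 CPM in ANS4 and 1.98 and 2.43 in BL6. In BMP it stood at 9.66 and 9.29 in ANS4 and 7.82 and 7.45 in BL6. In BMP/FGF it stood at 1.13 and 0.593 in ANS4 and 1.12 and 1.06 in BL6, below every library of the other media. The BMP/FGF libraries held 11 to 21 counts of the gene, so this level is the least precise. The mean in BMP (8.56 ± 1.08 CPM) was 4.56-fold that in EGF/FGF (1.88 ± 0.45) and 8.77-fold that in BMP/FGF (0.975 ± 0.257). The latter value chose the set, and neither carries a test. Over both quiescent media, Thbs1 rose by 0.62 (SE 0.19, FDR = 0.00575, edgeR), which averages opposite differences from EGF/FGF, 2.18 in BMP and −0.94 in BMP/FGF. In BL6 libraries alone this value was 0.37 (FDR = 0.105, edgeR).

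Thbs2, the other trimeric form, did not follow Thbs1. It stood at 5.59, 6.41, 5.36 and 6.46 CPM in EGF/FGF, at 10.2, 12.9, 9.69 and 11.9 in BMP and at 10.7, 9.43, 13.6 and 14.0 in BMP/FGF (ANS4 first, then BL6). Both quiescent media lay above EGF/FGF and overlapped each other. Thbs2 rose in BMP by 0.91 (SE 0.14, FDR = 7.97e-06) and in BMP/FGF by 0.99 (SE 0.14, FDR = 2.75e-06) on the log2 scale, by edgeR. Thbs1 stood to Thbs2 per length at 0.317 ± 0.068 in EGF/FGF, 0.782 ± 0.140 in BMP and 0.0824 ± 0.0183 in BMP/FGF. That ratio reuses the Thbs1 values that chose the set and carries no test.

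The pentameric forms were lower in quiescent media. Thbs3 stood at 22.5, 23.3, 24.2 and 23.8 CPM in EGF/FGF, at 14.2, 13.9, 12.6 and 10.2 in BMP and at 21.0, 19.1, 16.4 and 21.2 in BMP/FGF (ANS4 first, then BL6). The media did not overlap. Against EGF/FGF, Thbs3 fell by 0.89 in BMP (SE 0.10, FDR = 2.80e-07) and fell by 0.28 in BMP/FGF (SE 0.10, FDR = 0.0164) on the log2 scale, by edgeR. The smaller difference was not called in ANS4 libraries alone (log2 fold change −0.20, FDR = 0.0580, edgeR), without the first BL6 library in EGF/FGF (−0.24, FDR = 0.0518, edgeR) or without the first BL6 library in BMP/FGF (−0.22, FDR = 0.0637, edgeR). Exons of Thbs3 overlap those of Mtx1 on the other strand, and whether counting used strand is not given in the sources used here, so reads of both cannot be told apart there. Mtx1 fell by 0.67 (SE 0.08, FDR = 2.24e-07, edgeR) in BMP and fell by 0.63 (SE 0.08, FDR = 4.70e-07, edgeR) in BMP/FGF.

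Thbs4 was found almost only in EGF/FGF, at the edge of detection. It had 9, 7, 6 and 10 counts in the EGF/FGF libraries, 0 in every BMP library, and 0, 1, 1 and 0 in BMP/FGF. Every EGF/FGF library lay above every other library. With a floor of 3 counts over the 4 BMP libraries, Thbs4 was at least 10.3-fold higher in EGF/FGF than in BMP. Over BMP/FGF, with 2 counts in all, the ratio was 15.1 (95% exact interval 3.85 to 130, counting error only). The difference between EGF/FGF and the quiescent media, 0.400 CPM, had p = 0.00202 by a two-sided exact permutation test, the smallest that 495 divisions of the libraries can give.

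Between BMP/FGF and BMP, which chose the set, 5 of the 8 genes that passed the filter had no overlap of libraries (Thbs1 lower, and Thbs3, Angpt2, Vegfa and Pgf higher in BMP/FGF), against 35.6% of all tested genes, and nothing is read from this count. Of all tested genes, 41.4% were called in this contrast, 20.1% higher and 21.3% lower in BMP/FGF. Thbs3 had a log2 difference of 0.61 (SE 0.10) and Vegfa of 1.02 (SE 0.08), while Thbs2 (0.09, SE 0.13), Angpt1 (−0.16, SE 0.15) and Vegfb (−0.03, SE 0.09) lay within about 1 SE of 0. Measured as the share of the log2 difference between EGF/FGF and BMP that was undone in BMP/FGF, the values were 68.9% for Thbs3, 62.4% for Vegfa and 43.1% for Angpt2. For Thbs1 the share was 143%, since BMP/FGF lay below EGF/FGF. Of the genes without overlap, Thbs3 lay nearest the limit, with a highest BMP value of 14.2 and a lowest BMP/FGF value of 16.4 CPM.

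Ordered by level per kb in EGF/FGF, Angpt2 (56.6 ± 2.7 CPM per kb) and Vegfb (56.3 ± 7.3) led and did not differ beyond their spread, followed by Vegfa (9.34 ± 0.63), Thbs3 (7.36 ± 0.23) and Pgf (3.82 ± 1.24). In BMP, Vegfb (54.2 ± 7.3) stood far above Angpt2 (4.40 ± 0.63) and Thbs3 (3.99 ± 0.58), which lay within their spread of each other, and above Vegfa (3.02 ± 0.24) and Pgf (2.97 ± 0.72), which also lay within their spread. In BMP/FGF, Vegfb (53.1 ± 2.7) again led, followed by Angpt2 (13.2 ± 0.7) and Pgf (12.2 ± 1.3), whose spreads met, and by Vegfa (6.11 ± 0.45) and Thbs3 (6.08 ± 0.70), which were alike within their spread. Thbs2 (1.01 to 2.02), Angpt1 (0.850 to 1.03), Thbs1 (0.167 to 1.46), Vegfc (0.0898 to 0.138) and Thbs4 (0 to 0.129) had the lowest means per kb over the media. The order rests on the longest coding transcript, and with the shortest one it changes. Vegfa would then stand at 62.8, 20.3 and 41.1 CPM per kb and Thbs3 at 53.9, 29.2 and 44.6 in EGF/FGF, BMP and BMP/FGF, near Angpt2 in EGF/FGF and far above it in BMP and BMP/FGF.

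The next question was whether the 2 lines differed. Over all media, 1 of 8 genes differed between BL6 and ANS4, against 1.80% of all tested genes. This gene was Pgf, lower in BL6 by a log2 difference of −0.47 (SE 0.10, FDR = 0.0311, edgeR). Within EGF/FGF and within BMP, both BL6 libraries lay below both ANS4 libraries, and within BMP/FGF the lines overlapped. The call was lost in 8 of 12 fits that each left out 1 library (FDR from 0.0551 to 0.0892, edgeR), namely any library in EGF/FGF or in BMP, and with no filter on low counts (FDR = 0.0572, edgeR).

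The difference between BMP/FGF and BMP did not differ by line for any of the 8 genes by edgeR, where 13.5% of all tested genes were called. At an unadjusted p of 0.05, 2 genes passed, Thbs2 and Pgf, and DESeq2 called 0. Thbs2 lay 0.20 lower in BMP/FGF than in BMP in ANS4 and 0.35 higher in BL6 (log2 difference; line difference 0.55, SE 0.20, FDR = 0.0781, edgeR). It was called without the first ANS4 library in BMP (FDR = 0.0356, edgeR) and without the second BL6 library in BMP (FDR = 0.0249, edgeR), and Vegfb was called without the first BL6 library in BMP (FDR = 0.0395, edgeR). For Thbs1 the difference was −3.45 in ANS4 and −2.80 in BL6, for Angpt2 1.72 and 1.47, and for Pgf 1.84 and 2.29, the same direction in both lines. The difference of the quiescent media from EGF/FGF likewise differed by line for 0 of 8 genes by edgeR (4.60% of all tested genes called), with 2 genes (Angpt2, Pgf) at an unadjusted p of 0.05 and 0 by DESeq2. Angpt2 was called there without the second BL6 library in BMP (FDR = 0.0269, edgeR), and Vegfb without the first (FDR = 0.00916, edgeR).

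Receptors for these ligands were examined as a list, since a ligand acts on cells that make its receptor. Of 8 receptors and receptor partners of VEGFs and angiopoietins, 4 were tested, and in BMP 1 was higher and 2 lower than in EGF/FGF, with a median log2 fold change of −0.12 beside 0.02 for all tested genes. The counts of this and the following lists stand beside 79.6% of all tested genes called in BMP and 78.9% in BMP/FGF against EGF/FGF, and 41.4% between BMP/FGF and BMP, and a count near these shares is no result about the list. In BMP/FGF 0 were higher and 3 lower (median −0.32 beside 0.02), and between BMP/FGF and BMP 1 was higher and 2 lower (median −0.20 beside 0.00). Flt1, the receptor of Vegfa, Vegfb and Pgf, ranged from 36.5 to 45.6 CPM in the EGF/FGF libraries, 3.96 to 5.44 with BMP and 13.3 to 16.8 with BMP/FGF, the same order as Angpt2 and Vegfa. It fell by 3.04 in BMP (SE 0.10, FDR = 1.85e-14, edgeR), and its level with BMP/FGF exceeded that with BMP by 1.63 (SE 0.11, FDR = 5.93e-09, edgeR). Kdr, the main signalling receptor of Vegfa, stood at 1.71 ± 0.38 CPM in EGF/FGF, 3.16 ± 1.18 in BMP and 1.69 ± 0.17 in BMP/FGF, and rose in BMP by 0.87 (SE 0.24, FDR = 0.00317, edgeR), although 1 BL6 library in BMP stood at 1.46. The co-receptor Nrp1 differed by less, at 49.8 ± 2.6, 40.1 ± 4.5 and 42.3 ± 2.4 CPM. Tek, Tie1, Flt4 and Ptprb had at most 9 counts in any library and were not tested, so Tek, the receptor of Angpt1, had too few counts to compare.

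**Figure D4:**
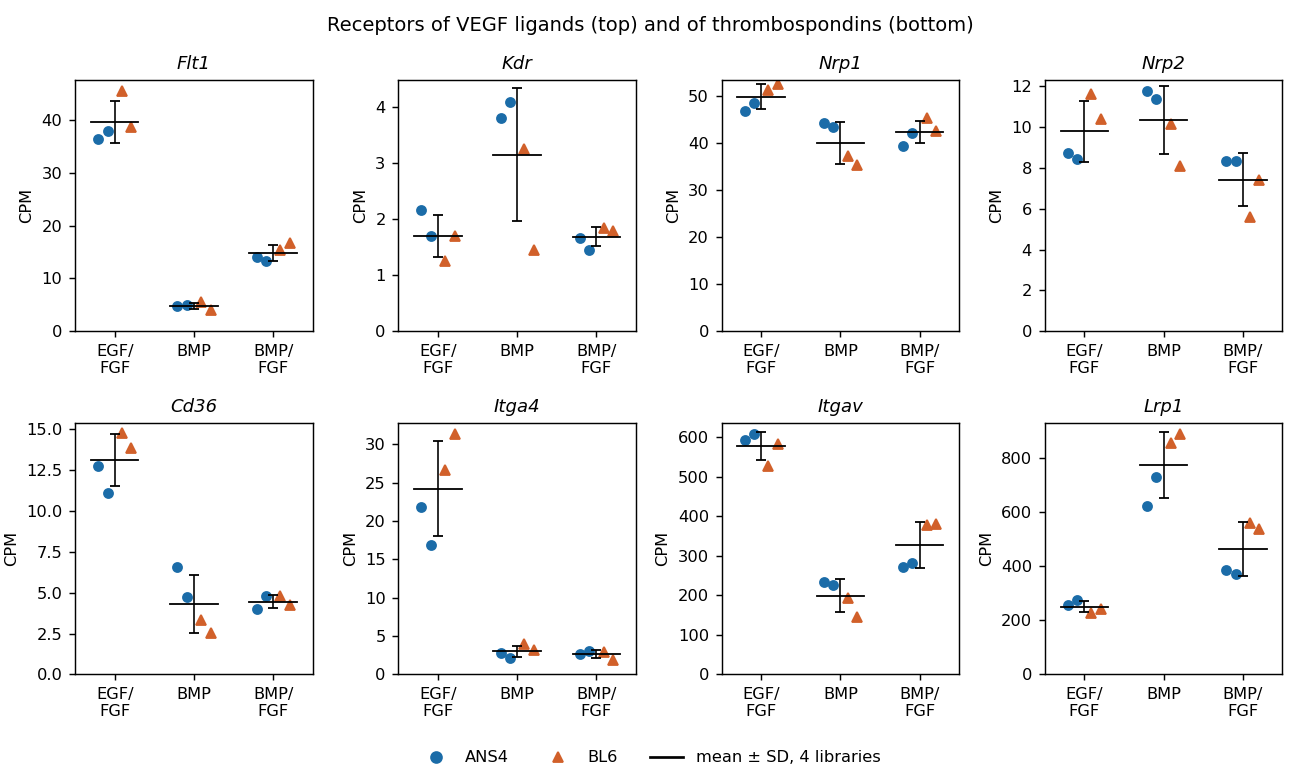
Level in CPM (y axis, linear, from 0) of 4 receptors of VEGF ligands (top row) and 4 receptors of thrombospondins (bottom row) in the 3 media (x axis), with 1 point per library, circles for ANS4 and triangles for BL6, and lines for the mean ± SD of 4 libraries. Flt1 lies at 36.5 to 45.6 CPM for EGF/FGF against 3.96 to 5.44 for BMP, and Lrp1 is highest in BMP, at 624 to 889.

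Of 11 thrombospondin receptors and partners, 10 were tested. In BMP 3 were higher and 7 lower than in EGF/FGF (median −0.32), in BMP/FGF 2 were higher and 5 lower (median −0.34), and between BMP/FGF and BMP 2 were higher and 2 lower (median 0.05), so 4 of 10 beside 41.4% of all genes. Cd36, through which Thbs1 restrains endothelial cells, stood at 13.1 ± 1.6 CPM in EGF/FGF, 4.30 ± 1.77 in BMP and 4.46 ± 0.41 in BMP/FGF, and fell by 1.63 in BMP (SE 0.19, FDR = 3.67e-07, edgeR). Cd47, the other receptor of the trimeric forms, went the other way, and is named after its values were seen. It stood at 25.6 ± 1.0, 32.7 ± 1.1 and 36.3 ± 3.4 CPM in EGF/FGF, BMP and BMP/FGF and rose by 0.36 in BMP (SE 0.08, FDR = 3.06e-04, edgeR) and by 0.50 in BMP/FGF (SE 0.07, FDR = 7.42e-06, edgeR). The integrin subunit Itgav fell by 1.54 in BMP (SE 0.13, FDR = 6.85e-09, edgeR), and its level with BMP/FGF exceeded that with BMP by 0.72 (SE 0.13, FDR = 3.43e-04, edgeR). Lrp1, which takes up thrombospondins into the cell, rose in BMP by 1.61 (SE 0.11, FDR = 2.56e-10, edgeR) and was lower in BMP/FGF than in BMP by a log2 difference of −0.75 (SE 0.11, FDR = 3.35e-05, edgeR), the same order of the quiescent media as Thbs1.

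Among 14 related ligands, 13 were in the table and 5 were tested, with 2 higher and 2 lower in each quiescent medium than in EGF/FGF and 2 higher and 0 lower in BMP/FGF than in BMP (medians −0.34, 0.09 and 0.42). These are 4 of 5 beside 79.6% and 78.9% of all genes, and 2 of 5 beside 41.4%. Angptl2, an angiopoietin-like protein, followed Angpt2, at 94.6 ± 2.8 CPM in EGF/FGF, 13.2 ± 1.4 in BMP and 29.8 ± 2.4 in BMP/FGF. It fell by 2.84 in BMP (SE 0.08, FDR = 1.85e-15, edgeR). Of 8 other secreted vessel growth inhibitors, all tested, 2 were higher and 5 lower in each quiescent medium than in EGF/FGF (medians −0.54 and −0.56), and 5 were higher and 2 lower in BMP/FGF than in BMP (median 0.30), where 41.4% of all genes were called. Col18a1, the collagen from which endostatin is cut, stood at 335 ± 8.8 CPM in EGF/FGF, 17.7 ± 2.7 in BMP and 24.7 ± 2.1 in BMP/FGF, while Timp3, which blocks Vegfa at Kdr, stood at 68.7 ± 9.1, 185 ± 45 and 262 ± 3.7.

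Vegfa is a known target of the hypoxia-inducible factors, so the genes of that response were listed too. Of 8 genes that sense oxygen, 3 were higher and 4 lower in BMP, 2 higher and 4 lower in BMP/FGF, and 1 was higher and 0 lower in BMP/FGF than in BMP (medians −0.07, −0.21 and −0.06). That gene was Epas1, which encodes HIF-2 alpha, at 39.3 ± 0.2 CPM in EGF/FGF, 101 ± 8.5 in BMP and 147 ± 18 in BMP/FGF. Of 9 tested hypoxia targets, 4 were higher and 4 lower in BMP, 3 higher and 3 lower in BMP/FGF, and between BMP/FGF and BMP 2 were higher and 3 lower (medians −0.13, −0.11 and 0.02), near the shares of all genes (79.6%, 78.9% and 41.4%). Adm, the vessel-active peptide adrenomedullin, fell by 2.80 in BMP (SE 0.10, FDR = 3.68e-14, edgeR), as Vegfa did, but Ndrg1 rose by 2.00 (SE 0.13, FDR = 7.06e-11, edgeR). The targets did not all move with Vegfa.

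Among 10 target genes of BMP and FGF signalling, 4 were higher and 6 lower in each quiescent medium than in EGF/FGF, and 5 were higher and 4 lower in BMP/FGF than in BMP (medians −1.03, −0.60 and 0.43), where 79.6%, 78.9% and 41.4% of all genes were called. Etv4, a transcription factor induced by FGF signalling, stood at 79.2 ± 2.1 CPM in EGF/FGF, 4.69 ± 1.5 in BMP and 14.7 ± 0.8 in BMP/FGF. It was also among the 3 genes whose log2 CPM was most like that of Angpt2 over the 12 libraries, with Myo16 (Pearson r = 0.995), Spred2 (0.994) and Etv4 (0.994). Nuak1 (0.984), Usp4 (0.959) and Tmem131l (0.956) were most like Thbs1, and Dbndd2 (0.986), Phf11d (0.984) and Gbp4 (0.980) most like Pgf. Within the set, Vegfa was most like Angpt2 (r = 0.961) and Thbs3 (0.938). These 12 points share 3 media and 2 lines, so the values are a description.

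Markers of other cells were checked beside these results. The summed level of 5 endothelial markers in the table spanned 2.53 to 3.47 CPM for EGF/FGF, 0.881 to 1.55 for BMP and 1.40 to 2.10 for BMP/FGF. Egfl7, the 1 that passed the filter, carried most of this sum. It stood at 2.38 CPM in EGF/FGF, 0.726 in BMP and 1.25 in BMP/FGF, the order of Angpt2, Vegfa and Flt1. The defining gene Pecam1 had at most 8 counts and another order, at 0.194, 0.202 and 0.371 CPM. The part of endothelial cells in the results was not tested. The 4 fibroblast markers in the table summed to 2.86 to 3.51, 0.61 to 0.83 and 0.916 to 1.08 CPM in the same order of media, without overlap and in the order of Angpt2, Vegfa and Thbs3, with Col1a2 and Lum at 3 counts or fewer, and their part in these results was not tested. The 4 microglia markers summed to 1.24 to 2.12, 2.07 to 3.15 and 1.62 to 3.61 CPM. Among 6 mural cell markers, Notch3, which NSCs also make, carried most of a sum of 46.8 to 95.5 CPM. The other tested ones ran in other orders. In EGF/FGF, BMP and BMP/FGF, Rgs5 stood at 1.20, 1.29 and 3.62 CPM and Acta2 at 1.64, 3.13 and 5.99. Pdgfrb stood at 0.530, 1.70 and 1.38 CPM. The part of mural cells in the results was not tested. All 8 NSC markers were tested, with sums of 4343 to 4740, 1896 to 2279 and 2741 to 3084 CPM, and 5 astrocyte markers summed to 1363 to 1771, 3737 to 4799 and 6632 to 6817. The 4 neuroblast markers summed to 25.4 to 30.5 CPM in EGF/FGF, 462 to 482 in ANS4 and 852 to 934 in BL6 in BMP, and 159 to 181 in BMP/FGF, so they were highest in the medium where Thbs1 was highest. Within BMP, however, Thbs1 was higher in ANS4 than in BL6, and the part of these cells in the Thbs1 result was not tested. The BL6 libraries in BMP differed more from each other (mean chi-square per gene 12.5) than any other pair of replicates (2.15 to 4.80).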

How the data were processed

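Low input RNA libraries were sequenced on a BGISEQ-500RS. The authors trimmed reads with Trim Galore 0.5.0, quantified them with kallisto 0.44.0 against mm10 transcripts, summarised them per gene with tximport, and deposited estimated counts, rounded to whole numbers. Their table of normalised values, made with DESeq2 1.27.32, was not used. Counts were analysed with edgeR 4.0.16 in R 4.3.3: filterByExpr kept 13312 of 17365 genes, TMM factors were applied, and 1 glmQLFit model of the 12 libraries had terms for medium and line. Two-sided glmQLFTest p-values received Benjamini-Hochberg adjustment across tested genes (FDR under 0.05). Line differences were tested as interactions. Genes below the filter were compared by exact permutation. CPM uses the summed counts of each library multiplied by its TMM factor (0.972 to 1.03), and log2 CPM in correlations a prior count of 2. With 18069052 to 19451818 counts per library, the exact interval and the floor (3 counts) of Thbs4 cover counting error only. Intervals at 2 SE come from the edgeR fit and include the spread between libraries. Positions and transcript lengths are from GENCODE vM21 (GRCm38) and promoters from RefSeq. On simulated data with 200 of 13312 genes changed, edgeR recovered 198 for quiescent media against EGF/FGF (8 false calls). For BL6 against ANS4 it recovered 197 (17 false). It recovered 174 for the line difference in BMP/FGF minus BMP (16 false) and 184 for that in quiescent media against EGF/FGF (6 false). In the measured data, 82.0% of genes were called for quiescent media against EGF/FGF. Recovery with that many genes changed, or by size of difference, was not tested.

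The genes, lists, markers and tests were chosen with earlier results of these data known. All 10 genes are named, and of each list up to 4 called genes per contrast with the largest change and a mean of at least 1 CPM. Alternatives were other scalings, DESeq2 1.42.0, no filter, a replicate block, each line alone, no line term, the compared libraries only, and each library left out. Replicate numbers did not pair the libraries (correlations of deviations −0.0711 to 0.0532).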

Additional observations from a re-analysis of the deposited data

Results flagged for a closer look

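Thbs1 in BMP/FGF was flagged because ANS4 replicate 2, at 0.593 CPM (11 counts), lay far from the other 3 libraries, at 1.06 to 1.13 CPM. The test for a single distant value was applied to 29 groups of 4 libraries and flagged 1, and chance flags about 1 in 20. Without this library the log2 difference of Thbs1 between BMP/FGF and BMP was −2.94, beside −3.13 with it.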

How the results depend on the processing

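The counts of called genes for BMP, BMP/FGF and the quiescent media together against EGF/FGF, and for the lists, stayed within 1.5 times their values under all alternatives, and no called difference changed sign. Of 56 log2 differences of the genes, 11 changed sign under some alternative, each of them uncalled or untested with the reported settings. Among them, leaving out 1 library gave −0.01 to 0.20 for Thbs2 between BMP/FGF and BMP (−0.20 in ANS4 alone), −0.17 to 0.01 for Vegfb between BMP and EGF/FGF, and −0.06 to 0.11 for Thbs1 between BL6 and ANS4. The single difference between BL6 and ANS4 (Pgf) was lost, leaving 0 genes, with no filter (FDR = 0.0572, edgeR), with a replicate block (0.0780) and without the condition term (1.00), and leaving out 1 library gave 0 to 1. Leaving out 1 library gave 0 to 1 genes for each line difference of a response. The log2 difference between BMP/FGF and BMP was −3.45 in ANS4 alone and −2.80 in BL6 alone for Thbs1, 1.72 and 1.48 for Angpt2, and 1.84 and 2.29 for Pgf. Leaving out 1 library gave −3.22 to −2.94, 1.53 to 1.68 and 1.96 to 2.17. Vegfb was called lower in ANS4 alone in BMP (FDR = 0.0185, edgeR) and in BMP/FGF (0.0279). The causes were not tested. The replicate block changed no other call among the genes. Without the filter, Thbs4 was also called lower in BMP and in BMP/FGF. Thbs1 in BMP/FGF, Thbs4 and Vegfc are limited by counts.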
